A study of Mus musculus with 2 samples.

Results

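The insulin-like growth factor (IGF) axis genes described here are the ligand gene *Igf1*, the receptor genes *Igf1r* and *Insr*, and the 7 binding protein genes *Igfbp1* to *Igfbp7*, taken as the probe sets whose only gene symbol is one of these names. All 10 were measured, by 11 of the 21789 probe sets with 1 symbol, which stand for 19938 genes in all. RNA of the whole pancreas of wild-type (WT) embryos and of embryos carrying the *Mafk* transgene (*Mafk*-Tg) was measured on Affymetrix mouse gene arrays at embryonic day E15.5, while endocrine cells are forming. The transgene is a FLAG-tagged mouse *Mafk* cDNA behind the rat insulin I promoter, so it is expressed in β-cells, and the mice of both groups were of ICR background with founders made from BDF1 eggs for the transgenic line. Each genotype is 1 array. The sources give 3 pancreata per genotype and speak of technical replicates, and whether the RNA of an array was pooled is not stated in the sources used here.

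IGF1 and IGF2 are secreted growth factors that signal through the IGF1 receptor and, in part, the insulin receptor, and insulin acts through the same receptor kinases. The IGF binding proteins hold most of the IGFs outside cells, where they can store, deliver or withhold them, and proteases release the ligand by cutting the binding proteins. In the embryo the IGFs act locally as growth factors, and the receptors are present on most cell types.

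Differences are *Mafk*-Tg minus WT on the log2 scale, and a gene was counted as different at 1.2-fold, the cutoff of the study, or 0.26 on the log2 scale. The study published its own list at that cutoff. The calls here were made anew by gene from the deposited values. The study's list counts probe sets and is much shorter than the set of genes called here. Some genes that the paper places in its list were within the cutoff here. The share of all genes given below is thus not the study's own rate of calls. Of the 10 IGF axis genes, *Igf1* passed the cutoff as higher in *Mafk*-Tg and *Igfbp6* as lower, and the other 8 were within the cutoff. Over all 19938 genes 18.4% passed it, 7.96% higher and 10.5% lower, so 2 of 10 is a share near the background. The median log2 difference of the 10 genes was -0.04, against -0.01 over all genes. Since each genotype has a single array, the spread between replicates is unknown, no test was made, and the precision of each value is limited accordingly.

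**Figure D1:**
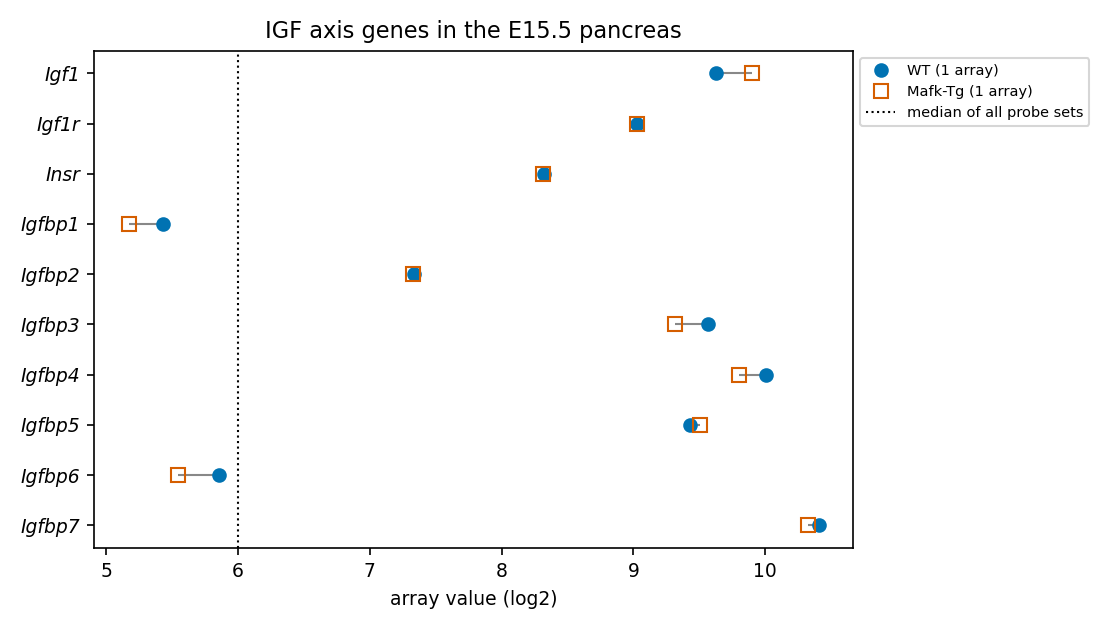
Array value (log2) of each IGF axis gene in WT (filled circles) and *Mafk*-Tg (open squares), 1 array per genotype and a dotted line at the median of all probe sets. *Igf1* goes from 9.63 to 9.90 and *Igfbp6* from 5.86 to 5.55, *Igfbp1* and *Igfbp6* lie under the median in both arrays, and values of different genes are not comparable with each other.

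The arrays as a whole had medians of 6.01 and 6.01. Acinar markers such as *Cpa1*, at 13.48 in WT and 13.51 in *Mafk*-Tg, fit the labelled tissue. *Xist*, made from the inactive X chromosome of female cells, stood at 4.40 on the WT array against 11.30 on the other, while the differences of 3 Y-linked genes were -5.68 for *Eif2s3y*, -4.67 for *Uty* and -3.93 for *Kdm5d*, so that genotype and the sex-linked difference cannot be told apart for any gene below.

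The sequences shown are the 250 bases before the transcription start of 3 binding protein genes, from RefSeq on GRCm38.p6. *Igfbp6* passed the cutoff, and *Igfbp1* lay just inside it. *Igfbp7* is shown since it and *Igfbp1* hold TGCTGAC, a part of the longer DNA element that MAF proteins bind. The full element was not searched for. Capitals mark TGCTGAC on either strand (GTCAGCA when read from the other one) and, in *Igfbp1*, CAAAACA, a part of the element through which insulin and FOXO factors are known to act on this gene.
*Igfbp1*, chr11:7197537-7197786, + strand: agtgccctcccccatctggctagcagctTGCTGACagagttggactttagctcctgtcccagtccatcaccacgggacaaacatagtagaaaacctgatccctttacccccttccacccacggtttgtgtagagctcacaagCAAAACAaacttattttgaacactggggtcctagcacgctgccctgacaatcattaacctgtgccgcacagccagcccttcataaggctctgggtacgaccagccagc
*Igfbp6*, chr15:102143936-102144185, + strand: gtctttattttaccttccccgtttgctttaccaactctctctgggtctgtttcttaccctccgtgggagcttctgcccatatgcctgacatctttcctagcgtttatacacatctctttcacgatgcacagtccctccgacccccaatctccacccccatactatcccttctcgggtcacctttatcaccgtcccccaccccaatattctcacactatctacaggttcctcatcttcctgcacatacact
*Igfbp7*, chr5:77408046-77408295, - strand: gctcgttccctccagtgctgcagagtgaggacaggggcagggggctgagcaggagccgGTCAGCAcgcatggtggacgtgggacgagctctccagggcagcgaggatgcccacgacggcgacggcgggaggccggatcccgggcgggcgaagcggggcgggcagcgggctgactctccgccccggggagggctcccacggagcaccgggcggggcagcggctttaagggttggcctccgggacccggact

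Windows were found for 9 of the 10 genes, 10 windows in all because *Igfbp2* has 2. Both strands were searched, and no match overlaps another in these windows. TGCTGAC was found in 2 of the 10 windows, and 3.81% of the 32851 windows of all genes hold it. TGACTCA, the core that MAF and AP-1 proteins share, was found in 1 window, of *Igfbp2*, against 4.46% of all windows. CAAAACA was searched after the *Igfbp1* window had been read and was found in that 1 window, against 5.56% of all. The windows of *Igf1*, *Igf1r*, *Igfbp3*, *Igfbp4*, *Igfbp5* and *Igfbp6* hold none of these letters, and that of *Igf1* lies before a start inside the listed span of the gene, so other starts of *Igf1* were not searched. A match is a run of letters and not a shown binding site. The 2 genes with TGCTGAC had log2 differences of -0.26 (*Igfbp1*) and -0.08 (*Igfbp7*), both within 1.2-fold.

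*Igf1*, the gene of the growth factor itself, measured 9.63 (log2) on the WT array and 9.90 on the *Mafk*-Tg array. On the linear scale these are 790.2 and 957, a ratio of 1.21. The *Mafk*-Tg array was thus the higher one, by 0.28 on the log2 scale, and just past the cutoff. The robust SD of the differences of the 1000 genes nearest in level, a spread between genes and not between replicates, was 0.13. After quantile normalization of the arrays the difference of *Igf1* was 0.26, under the cutoff, which left *Igfbp6* as the only gene of the 10 past it. Both values belong to a bulk tissue, in which fewer cells of a type and less RNA per cell cannot be told apart.

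The receptor genes were nearly level between the arrays. *Igf1r*, the gene of the receptor kinase for IGF1 and IGF2, had 9.03 on both arrays, a difference of 0.00. That difference was so near 0 that its sign turned under other scalings, by equal medians, by quantiles and by loess. *Insr*, the gene of the insulin receptor, was measured by 2 probe sets, with 8.66 and 8.70 on the first and 7.98 and 7.93 on the second. One was higher and the other lower in *Mafk*-Tg, by 0.03 and by -0.05, and their mean difference was -0.01. Taken from its brighter probe set alone, *Insr* would be on the other side of 0.

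Of the 7 binding protein genes, 6 had a difference below 0 and 1 above, with a median of -0.21, while 51.6% of all genes had a difference below 0. The 6 include *Igfbp2*, which at -0.01 was too close to 0 to have a firm side. Only *Igfbp6* of the 7 passed 1.2-fold. *Igfbp6*, whose protein prefers IGF2 to IGF1, went from 5.86 in WT to 5.55 in *Mafk*-Tg, a difference of -0.31 and a fold of 1.24. *Igfbp1*, an insulin-repressed gene best known from liver, went from 5.43 to 5.17, a difference of -0.26. Its fold of 1.196 lies just inside the cutoff, and at a cutoff slightly below 1.2-fold 3 of the 10 genes passed, against 20.1% of all genes. At 1.5-fold 0 of the 10 passed, against 1.97% of all genes.

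*Igfbp1* and *Igfbp6* both lay under the median level of all probe sets, where small differences were common. Of the 8526 genes below that level 27.8% passed 1.2-fold in one direction or the other, against 11.5% of the 11412 genes at or above it. Genes of like level had a robust SD of 0.22 for *Igfbp1* and 0.21 for *Igfbp6*. Among the 8 IGF axis genes at or above the median level *Igf1* alone passed 1.2-fold.

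*Igfbp3*, the gene of the main IGF carrier of blood, had 9.57 (WT) and 9.32 (*Mafk*-Tg), a difference of -0.25 and a fold of 1.188. *Igfbp4*, the gene of a binding protein that restrains IGF action until it is cut, had 10.01 and 9.80, a difference of -0.21. Both were lower in *Mafk*-Tg and within the cutoff, and both lie above the median level, where genes of like level had a robust SD of 0.13. *Igfbp7*, whose product binds IGFs weakly and is made by vessels and mesenchyme, had 10.41 and 10.33, a difference of -0.08.

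*Igfbp5*, the gene of a binding protein that attaches to the extracellular matrix, had 9.43 in WT and 9.51 in *Mafk*-Tg, and with 0.08 was the binding protein gene with a value above 0. *Igfbp2*, widely expressed in fetal tissue, had 7.33 and 7.32, a difference of -0.01. In the RefSeq gene order *Igfbp2* and *Igfbp5* are neighbours, as are *Igfbp1* and *Igfbp3*, with no other protein-coding gene listed between the genes of either pair. The first pair had differences of -0.01 and 0.08, the second of -0.26 and -0.25.

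**Figure D2:**
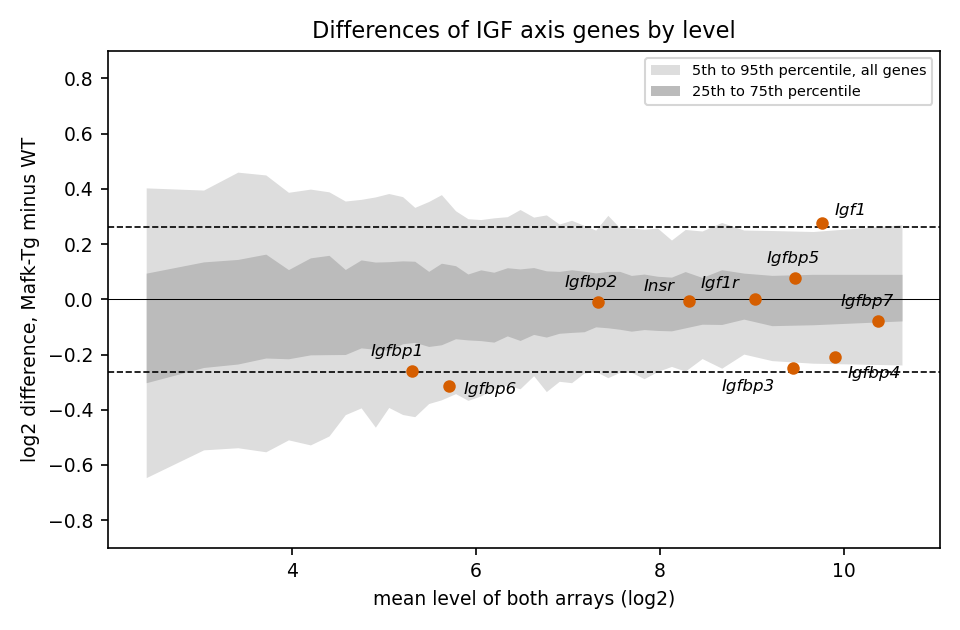
Log2 difference, *Mafk*-Tg minus WT, against the mean log2 level of both arrays for the 10 IGF axis genes (points), with grey bands for the percentiles of all 19938 genes in 40 bins of level and dashed lines at 1.2-fold. *Igf1* at 0.28 lies just above the upper line and *Igfbp6* at -0.31 just below the lower one, in the part of the plot where the bands are wider. *Igfbp6* is inside the outer band of its level, and *Igf1* and *Igfbp3*, the latter at -0.25, are outside theirs.

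The other ligands, receptors and regulators outside the cell had 11 measured genes of 12 listed. Of the 11, 0 were at least 1.2-fold higher and 2 lower, near the 18.4% of all genes that passed. These were *Ins2*, an insulin gene, at 8.79 in WT and 8.40 in *Mafk*-Tg, and *Igfbpl1*, which encodes a protein related to the binding proteins, at 6.22 and 5.77. *Igf2*, the second growth factor, had 12.29 (WT) and 12.21 (*Mafk*-Tg), a difference of -0.08. *Igf2r*, the gene of the receptor that clears IGF2, had 9.64 and 9.72, a difference of 0.08. Neither passed the cutoff.

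The proteases that cut the binding proteins, and their inhibitors, were within 1.2-fold. *Pappa*, whose protease cuts IGFBP4, had a difference of -0.12, *Pappa2* -0.23 and *Htra1* -0.10. The stanniocalcin genes *Stc1* and *Stc2*, which encode inhibitors of the PAPPA proteases, had 0.19 and 0.00. *Igfals*, the gene of a carrier subunit that joins IGF1 and IGFBP3 in blood, had -0.04, and *Insrr*, a receptor gene related to *Insr*, had 0.21. The median of the list was -0.08. With the brightest probe set of each gene in place of the mean, *Pappa2* and *Igf2bp1* also passed the cutoff as lower.

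Growth hormone drives *Igf1* in liver after birth, and 1 of the 4 genes of its signalling passed 1.2-fold. All 4 lay at or above the median level, where 11.5% of all genes passed, and 4 genes are too few to compare with that share. *Ghr*, the growth hormone receptor gene, had 9.57 (WT) and 9.85 (*Mafk*-Tg), a difference of 0.29, and a link to *Igf1* was not tested. The kinase gene *Jak2* had -0.11, and *Stat5a* and *Stat5b*, genes of the transcription factors that carry the signal to *Igf1*, had -0.12 and -0.19. These 3 were on the other side of 0.

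Inside the cell, none of the 27 measured genes of 30 listed passed 1.2-fold, in either direction, and their differences ran from -0.19 to 0.26 with a median of 0.02. *Irs2*, which encodes a docking protein of the insulin and IGF1 receptors with a known part in β-cell mass, had 7.53 in WT and 7.79 in *Mafk*-Tg. Its difference of 0.26 was the highest of the list, at a fold of 1.195, just inside the cutoff. *Irs1*, the related docking protein gene, had 5.96 and 5.89, a difference of -0.07. *Foxo3*, which encodes a transcription factor held out of the nucleus by AKT, had the lowest difference at -0.19. Of the 3 listed genes of proteins that bind *Igf2* mRNA, *Igf2bp1* had -0.11 and *Igf2bp3* 0.11. Listed genes without a value, *Ins1* and *Igf2bp2* among them, were not analysed here. Over all 4 lists 3 of 44 measured genes passed the cutoff, 1 higher and 2 lower, a smaller share than the 18.4% of all genes. Of the 44, 40 lay at or above the median level, where 11.5% of all genes passed. Among these 40, 1 was higher and 1 lower.

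**Figure D3:**
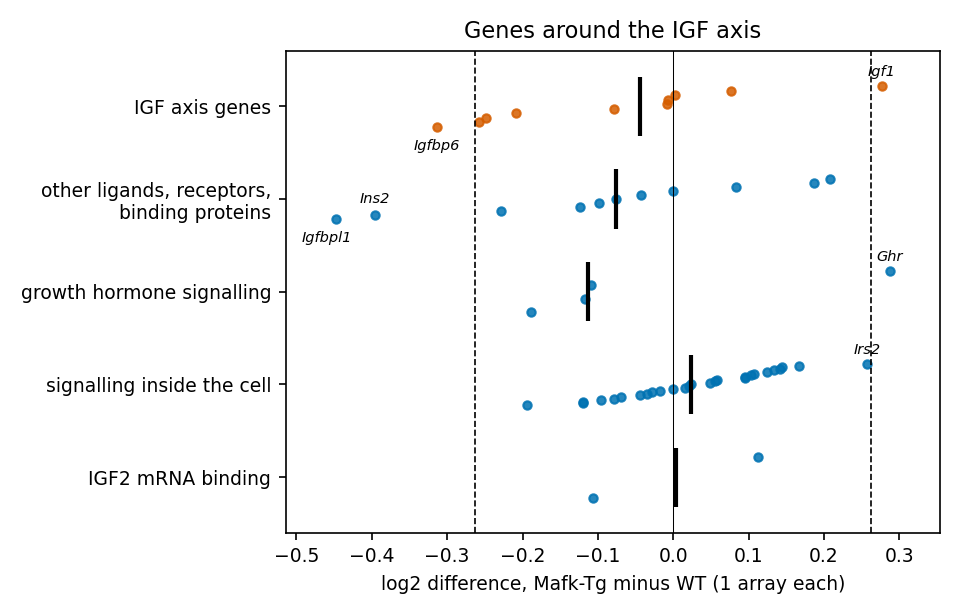
Differences (log2, *Mafk*-Tg minus WT) of the IGF axis genes and the measured genes of 4 lists of the surrounding pathway (points), with list medians (bars) and dashed lines at 1.2-fold, 1 array per genotype. *Igf1*, *Igfbp6*, *Ghr*, *Ins2* and *Igfbpl1* are the only points outside the lines, and *Irs2* lies just inside.

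Markers of some cell types in the dissected tissue also differed between the arrays, and their part in the values above was not tested. No measured cell type marker was below the median level, and 11.5% of all genes not below it passed 1.2-fold. With at most 10 markers in a list, the mesenchyme, endothelial, acinar and duct counts given below cannot be told from that share. The hepatocyte, leukocyte, erythroid and endocrine counts lay above it. Of 10 mesenchyme markers 2 were lower, *Myl9* at -0.43 and *Pdgfrb* at -0.35, and 0 higher, with a median of -0.11. Their summed linear level was 9899.9 in WT and 9242 in *Mafk*-Tg. Of 10 endothelial markers 1, *Cldn5* at -0.36, was lower and 0 higher, with a median of -0.12 and sums of 4134 and 3780.1. Of the 10 IGF axis genes 7 had differences on the same side of 0 as these medians, and *Igf1*, *Igf1r* and *Igfbp5* lay on the other. Of all genes 51.6% had a difference below 0. *Igf1r* at 0.00, *Insr* at -0.01 and *Igfbp2* at -0.01 were too close to 0 to have a firm side. The lowest array value (log2) among the mesenchyme markers was 6.53 in WT and 6.44 in *Mafk*-Tg, and among the endothelial markers 7.55 and 7.52.

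A link of *Igfbp1* to the hepatocyte markers was not tested. Of 10 measured, 8 were at least 1.2-fold lower in *Mafk*-Tg and 0 higher, with *Apob* at -0.94 and *Trf* at -0.59, a median of -0.51, and sums of 5003 in WT and 3835 in *Mafk*-Tg. Leukocyte markers were lower in 7 of 9, with a median of -0.40 and sums of 3457 and 2381, led by *Lyz2* at -0.68 and *Coro1a* at -0.65. Erythroid markers were lower in 5 of 6, with a median of -0.53 and sums of 2267 and 1574, led by *Rhag* at -1.11 and *Ermap* at -0.86.

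The medians of the epithelial lists lay on the other side of 0, though not every marker did. Of 9 measured acinar markers 1, *Bhlha15* at 0.42, was higher and 0 lower, with a median of 0.20 and sums of 36059.9 and 38941. Duct markers had 0 of 7 past the cutoff and a median of 0.15, with sums of 6240.1 and 6851 and *Cdh1* at 0.20. Endocrine markers were higher in 5 of 10, with *Chgb* at 0.73 and *Rfx6* at 0.48. They were lower in 2, *Ins2* at -0.40 and *Chga* at -0.32. The endocrine median was 0.26, with sums of 6733 and 7660.3. Such sums weight bright probe sets, here *Gcg*, the glucagon gene, at 3291 in WT and 3995 in *Mafk*-Tg on the linear scale.

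**Figure D4:**
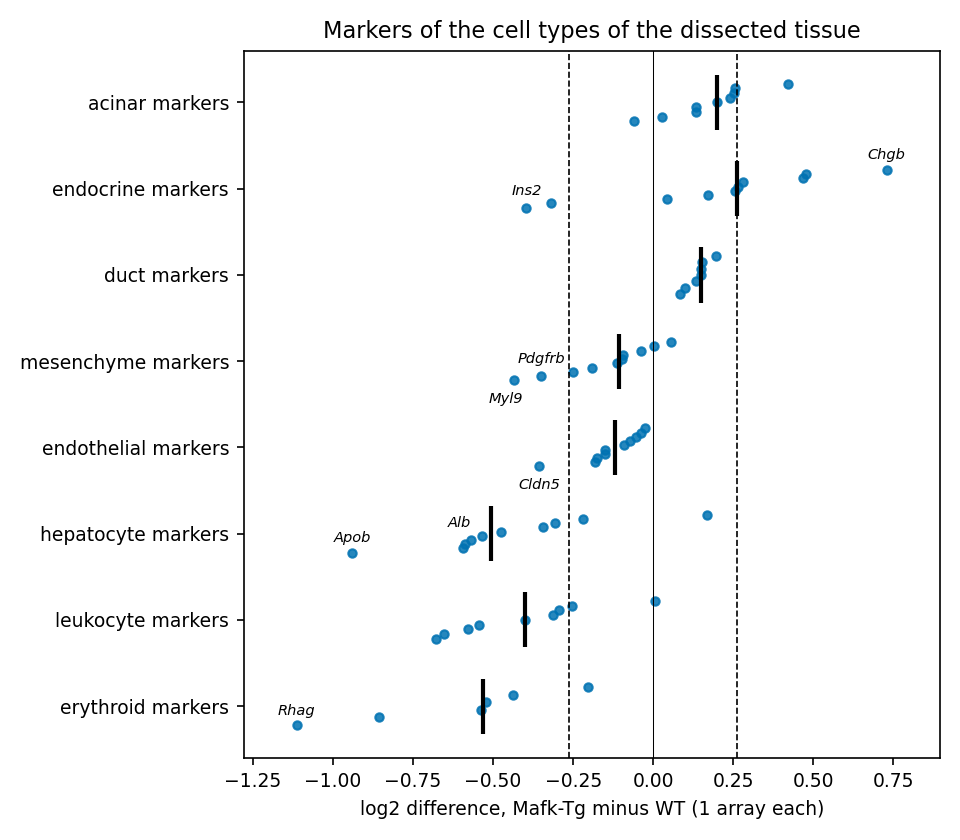
Differences (log2, *Mafk*-Tg minus WT) of the measured markers (points) of 8 cell types and the list medians (bars), with dashed lines at 1.2-fold and 1 array per genotype. Acinar, endocrine and duct medians lie above 0, at 0.20, 0.26 and 0.15, and mesenchyme, endothelial, hepatocyte, leukocyte and erythroid medians below it.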

How the data were processed

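Total RNA of whole E15.5 pancreata had been hybridised to Affymetrix MoGene arrays. The authors normalized the arrays and summarized probe sets in Affymetrix Expression Console (version and algorithm not given in the sources used here), and the deposited values are on the log2 scale. The table holds 35556 probe sets, of which the platform annotation gives 21789 a single symbol, 1621 several and 12146 none used here. Those with a single symbol were averaged by gene, for 19938 genes, and WT was subtracted from *Mafk*-Tg. Levels are set against the median of all probe sets, and differences against 1.2-fold. The robust SD is the median absolute deviation, scaled to a normal SD, over the 1000 genes nearest in mean level. Named genes are the 10 IGF axis genes, pathway genes past 1.2-fold (at most 6 per list), *Igf2*, *Igf2r*, *Irs1* and *Irs2*, and at most 2 markers per cell type list. *Pappa*, *Pappa2*, *Htra1*, *Stc1*, *Stc2*, *Jak2*, *Stat5a*, *Stat5b*, *Foxo3*, *Igfals*, *Insrr*, *Igf2bp1*, *Igf2bp3*, *Cpa1*, *Gcg* and the 4 sex-linked genes were named in addition for their roles or values. *Chga* was named as a lower endocrine marker. CAAAACA and the genes of the closing section were chosen after values were seen. All genes and lists were chosen with earlier results of these data known. Promoters were read from RefSeq windows on GRCm38.p6, and protein features were not analysed here. The alternatives were equal medians, quantile normalization, a loess with a span of 0.3, the brightest probe set, cutoffs of 1.19-fold and 1.5-fold, and leaving out genes below the median level. The calling of differences was tested on simulated data with known changes. Computation was in Python 3.11.15 with pandas 2.3.3, statsmodels 0.14.6 for loess, numpy 2.4.6, and matplotlib 3.10.9 for plots.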

Additional observations from a re-analysis of the deposited data

How the results depend on the processing

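No paired analysis was possible because each genotype has 1 array, and for the same reason no array could be left out. The 10 single-gene differences gave 31 values that another scaling or, for *Insr*, the choice of probe set could move, and each of the 31 stayed closer to its reported value than 1 robust SD, with a largest move of 0.04. This is a weak check, since the robust SD is a spread between genes. Equal medians also moved all 10 genes by the same small amount. Signs turned in 4 of the 31, 3 of *Igf1r* and 1 of *Insr*, genes close to 0. The count of 2 IGF axis genes past 1.2-fold was 1 after quantile normalization, where *Igf1* was lost, 1 without genes below the median level, where *Igfbp6* was no longer counted, and 0 at 1.5-fold. With equal medians, a loess or the brightest probe set it was 2, and just below 1.2-fold 3. The count of 3 pathway genes was 5 with the brightest probe set and 0 at 1.5-fold, and it lay between 2 and 4 otherwise. The median difference of -0.04 lay between -0.05 and -0.01 under these settings. *Igf1* was the IGF axis gene whose side of 1.2-fold turned with the scaling. Arrays give signal over background and not read depth, and *Igfbp1* and *Igfbp6*, below the median level, are the genes this limits most.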

Other observations

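Genes related to the IGF axis by structure were read after the values above had been seen. The CCN family are secreted matrix proteins with a domain like that of the IGF binding proteins. Of its 6 measured genes 0 passed 1.2-fold, and 5 were below 0 and 1 above. Over all genes 18.4% passed and 51.6% were below 0, and 6 genes are too few to compare with these shares. *Ccn1* had the lowest difference, -0.16, with 7.89 (WT) and 7.74 (*Mafk*-Tg), and *Ccn6* the highest, 0.08. The family median was -0.11. *Kazald1*, which encodes a secreted protein with an IGF binding protein domain, was at least 1.2-fold lower, with 8.34 in WT, 8.02 in *Mafk*-Tg and a difference of -0.315. It lay above the median level, and 11.5% of all genes at or above that level passed 1.2-fold. *Esm1*, an endothelial gene whose product carries the same kind of domain, had 5.56 in both arrays.

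The relaxin family peptides share the fold of insulin, and all of the 8 measured genes of these peptides and their receptors lay below the median level of all probe sets, with values from 3.14 to 5.52 in WT. *Rln1* was at least 1.2-fold lower in *Mafk*-Tg, with 5.52 and 5.13 and a difference of -0.39, and the other 7 were within the cutoff. Of all genes below that level 27.8% passed it.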
